A study of Sus scrofa with 16 samples.

Results

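Chromatin accessibility was examined at 9 genes of the urea cycle and of gluconeogenesis, CPS1, NAGS, ASS1, ASL, ARG1, PC, PCK1, FBP1 and TAT, among 19552 protein-coding genes (PCGs) of the pig. The genes were chosen by name, and all peaks were collected that overlapped a promoter (from 2.2 kb upstream to 500 bp downstream of an annotated start) or the gene body with 5 kb on either side, which is called the window of the gene here. ATAC-seq, in which a transposase cuts open DNA and leaves sequencing adaptors there, had been run on 16 libraries from female domestic crossbred pigs. They formed 8 groups of 2 libraries. These were liver, kidney, heart, lung, skeletal muscle and spleen of newborns, liver of suckling pigs (day 28) and liver of adults (day 180). Newborns are day 0 in the labels, while the study's methods call them a day old. No treatment or genetic change was applied in any group. The study's methods state that 2 full-sib pigs, hybrids of Berkshire and Tibetan stock, were sampled at each stage and that the newborn tissues came from the same 2 pigs, so the 6 newborn lists share animals and an age is tied to a pair of animals. The nuclei came from whole frozen tissue, and in such bulk samples fewer cells of a type and less open chromatin per cell cannot be told apart.

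The urea cycle turns ammonia, set free when amino acids are broken down, into urea in the periportal hepatocytes of the liver. CPS1 makes carbamoyl phosphate in the mitochondria, NAGS makes its obligate activator N-acetylglutamate, ASS1 and ASL build and split argininosuccinate, and ARG1 releases urea from arginine. Gluconeogenesis rebuilds glucose from pyruvate through PC, PCK1 and FBP1 in liver and in kidney cortex, and TAT, the first enzyme of tyrosine breakdown, is a classical glucocorticoid-responsive liver gene that starts to be expressed around birth in mammals.

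The sequences below are those of the RefSeq Sscrofa11.1 assembly at the sites on which the results turn, written along the strand of the gene. They are shown because the intronic, upstream and promoter peaks described below lie there. All but that before the outer start of ARG1, where the peak was in spleen alone, were under peaks of liver lists. The one before the inner start of ARG1 was so only in part, as the liver peaks there end by position 32020672. The NAGS, PCK1 and FBP1 sites and the upstream TAT site lay in regions that were called in kidney too, and that of PCK1 also in spleen. Each runs for 250 bp, either around the peak summit of the adult liver list or up to the last base before an annotated start. Capitals mark matches, on either strand, to 7 consensus sequences of factors known in liver or blood cells, which were FOXA (TGTTTAC), C/EBP (TTGCNNAA), CREB (TGACGTNA), HNF4 (CAAAGTCCA), HNF1 (GTTAATNAT), the glucocorticoid receptor (ACANNNTGT) and SPI1 (GAGGAAGT).
CPS1, first intron (chr15:113214095-113214344, plus strand): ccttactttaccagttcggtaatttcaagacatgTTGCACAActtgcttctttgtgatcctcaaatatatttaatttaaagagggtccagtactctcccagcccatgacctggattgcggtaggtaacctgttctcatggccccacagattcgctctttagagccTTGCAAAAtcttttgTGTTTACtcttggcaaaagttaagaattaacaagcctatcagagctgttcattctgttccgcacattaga
NAGS, upstream (chr12:19178169-19178418, minus strand): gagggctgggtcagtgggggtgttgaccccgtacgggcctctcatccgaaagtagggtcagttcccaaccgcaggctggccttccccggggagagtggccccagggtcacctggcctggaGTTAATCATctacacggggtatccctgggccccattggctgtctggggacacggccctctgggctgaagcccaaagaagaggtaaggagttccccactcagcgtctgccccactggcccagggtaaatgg
ARG1, before the inner start (chr1:32020569-32020818, minus strand): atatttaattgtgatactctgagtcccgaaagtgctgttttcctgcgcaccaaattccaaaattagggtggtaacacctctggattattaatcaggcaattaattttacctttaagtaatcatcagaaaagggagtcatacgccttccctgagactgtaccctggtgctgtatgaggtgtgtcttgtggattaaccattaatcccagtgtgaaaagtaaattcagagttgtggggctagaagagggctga
ARG1, before the outer start (chr1:32028984-32029233, minus strand): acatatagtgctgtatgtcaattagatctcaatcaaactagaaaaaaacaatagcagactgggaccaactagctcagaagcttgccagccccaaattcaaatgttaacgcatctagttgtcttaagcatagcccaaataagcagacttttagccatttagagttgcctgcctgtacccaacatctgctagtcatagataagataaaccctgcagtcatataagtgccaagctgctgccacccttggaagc
PCK1, before the start (chr17:57930257-57930506, plus strand): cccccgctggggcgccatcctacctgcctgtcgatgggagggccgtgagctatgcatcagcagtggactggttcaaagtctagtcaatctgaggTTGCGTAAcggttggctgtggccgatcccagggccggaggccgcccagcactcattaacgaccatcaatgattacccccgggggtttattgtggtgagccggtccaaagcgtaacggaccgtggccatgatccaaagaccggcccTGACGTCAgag
FBP1, intron (chr10:27615408-27615657, plus strand): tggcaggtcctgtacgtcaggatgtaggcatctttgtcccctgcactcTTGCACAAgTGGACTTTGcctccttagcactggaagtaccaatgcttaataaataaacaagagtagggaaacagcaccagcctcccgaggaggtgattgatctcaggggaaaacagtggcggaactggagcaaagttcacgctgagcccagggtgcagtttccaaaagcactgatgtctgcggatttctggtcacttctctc
TAT, upstream (chr6:14587218-14587467, minus strand): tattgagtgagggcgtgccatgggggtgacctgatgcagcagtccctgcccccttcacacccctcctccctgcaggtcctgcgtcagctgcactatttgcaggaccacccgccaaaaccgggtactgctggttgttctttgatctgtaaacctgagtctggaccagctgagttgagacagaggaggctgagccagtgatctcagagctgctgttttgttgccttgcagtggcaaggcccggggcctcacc
TAT, before the start (chr6:14583204-14583453, minus strand): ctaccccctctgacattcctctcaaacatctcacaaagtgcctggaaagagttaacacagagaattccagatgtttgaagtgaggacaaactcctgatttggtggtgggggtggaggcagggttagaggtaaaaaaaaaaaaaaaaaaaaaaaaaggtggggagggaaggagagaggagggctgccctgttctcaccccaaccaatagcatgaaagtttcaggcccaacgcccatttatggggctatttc

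The CPS1 intron held 2 C/EBP matches (bases 35 to 42 and 166 to 173) and 1 FOXA match (bases 181 to 187). The PCK1 promoter held a C/EBP match at bases 95 to 102 and a CREB match at bases 240 to 247, just before the start. In the FBP1 intron a C/EBP match at bases 49 to 56 was followed, after a single base, by an HNF4 match on the other strand at bases 58 to 66. The NAGS upstream site held an HNF1 match at bases 121 to 129. No match to any of the 7 was found in the other sequences printed. Among 107530 windows of 250 bp around the summits of adult liver peaks, 16.1% held a C/EBP match, 7.48% a glucocorticoid receptor match, 6.16% a FOXA match, 2.83% an SPI1 match, 1.66% an HNF1 match, 1.51% a CREB match and 1.39% an HNF4 match. In the 250 bp before 47599 annotated starts the shares were 7.65% for C/EBP, 2.72% for CREB and 0.647% for HNF1. A match is a description of letters, not a measured site of binding.

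The deposited lists held between 57126 (muscle) and 141689 (suckling liver) peaks, and they give no numbers of reads. The study states read totals for each library, which were not used here. The irreproducible discovery rate (IDR), the share of peaks at least as strong that is expected not to repeat between replicates, was 0.05 or lower for 19.2% of newborn liver peaks, 33.8% of suckling liver peaks, 50.4% of adult liver peaks and 33.9% of kidney peaks, and for 19.9% to 29.9% in the other lists. The replicates of newborn liver were unequal, with median −log10 p values of 24.8 and 8.66, as were those of lung, with 6.15 and 22.5. Promoters of 5 hepatocyte marker genes (ALB, TTR, APOA1, SERPINA1 and FGB; TF had no matching symbol) held a peak for 4, 5 and 5 genes in newborn, suckling and adult liver and for 1 gene in each other list. Of 6 kidney tubule genes, 5 had a promoter peak in kidney and 1 in each liver list. Promoter counts for some markers of other cells differed between the liver ages. Erythroid promoters with a peak numbered 5 of 6 in newborn liver, 3 in suckling liver and 2 in adult liver, and lymphoid ones 2, 5 and 4 of 6, while macrophage ones were 4 of 6 at each age. In spleen, 6 of 6 erythroid, 6 of 6 lymphoid and 5 of 6 macrophage promoters held a peak. Of all PCGs, 73.7%, 75.0% and 69.9% had a promoter peak in newborn, suckling and adult liver, 75.3% in kidney and 68.9% in spleen. Skeletal muscle promoters with a peak numbered 4 of 6 in newborn liver and in kidney, and cardiomyocyte ones 4 of 5 in kidney. The part of any of these cells in the age values below was not tested.

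**Figure D1:**
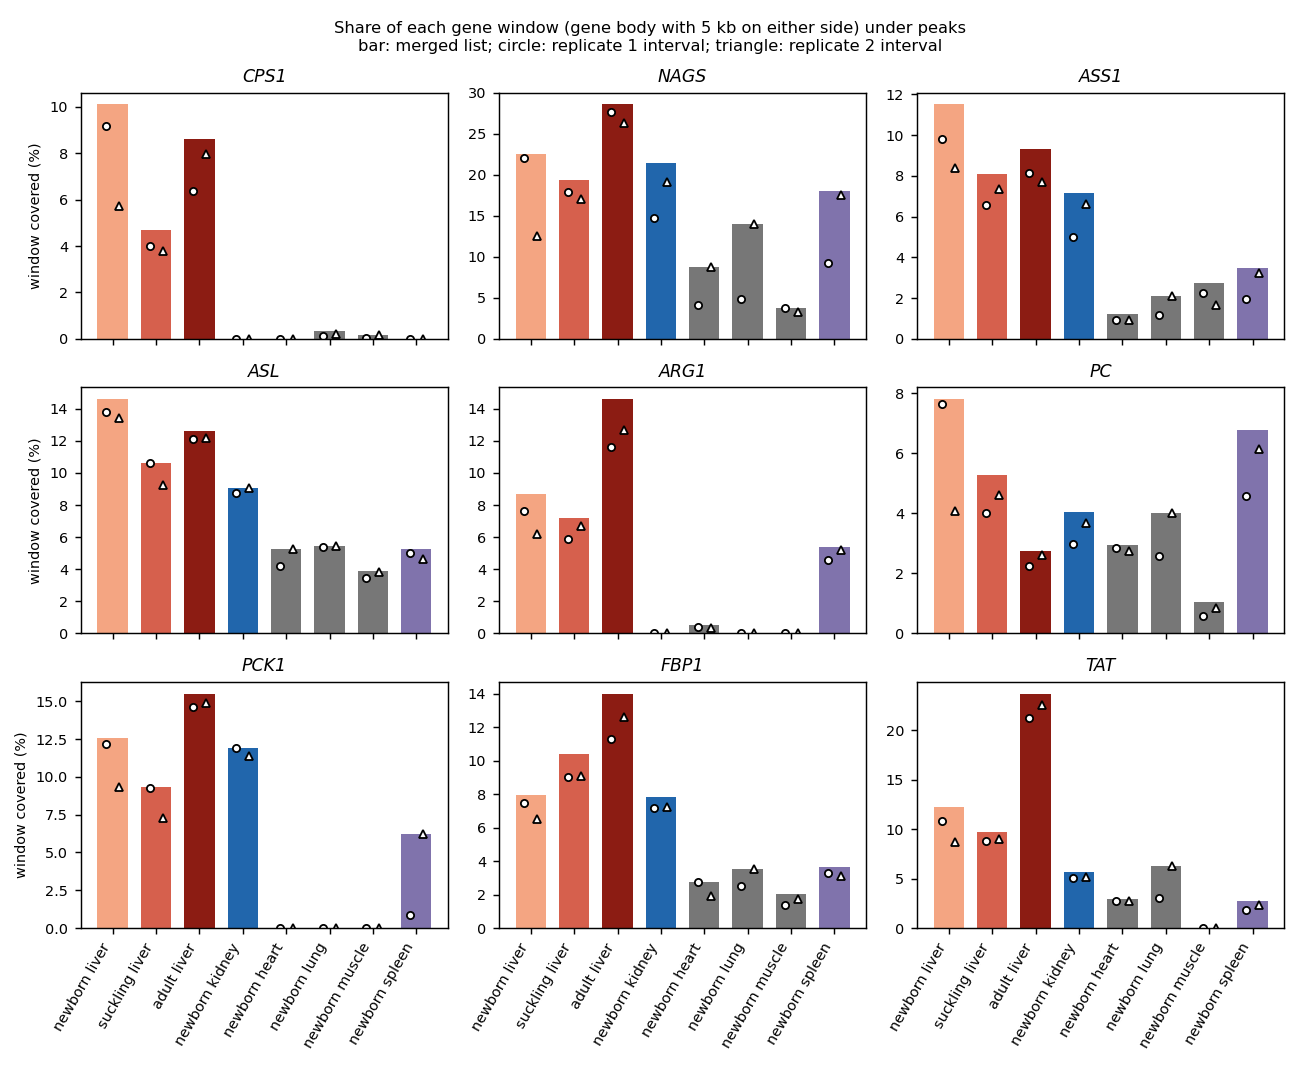
Share of the window of each of the 9 genes that lay under peaks (percent, y axis) in the 8 lists (x axis). Bars are merged lists, circles and triangles the intervals of replicates 1 and 2. The liver bars stand above all others at CPS1, ASS1, ASL, ARG1, FBP1 and TAT, and PC shows no such order.

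Across the 9 windows, peaks covered 10.7% of the bases in newborn liver, 7.48% in suckling liver and 11.4% in adult liver. The values were 4.48% in newborn kidney, 3.35% in spleen, 2.33% in lung, 1.55% in heart and 1.17% in muscle. The windows of all PCGs were covered to 4.0%, 4.06% and 3.79% in the liver lists, 3.98% in kidney and 2.23% to 3.18% in the other lists. Cover of the 9 windows was therefore above that of the whole gene set at each liver age. It was also above it in kidney and in spleen (3.04% over all PCGs), and below it in heart, lung and muscle. The windows held 99, 72 and 89 peaks in newborn, suckling and adult liver, 33 in kidney, 22 in spleen, 13 in lung and 10 each in heart and muscle. Without CPS1, whose window is the longest, cover was 11%, 9.07% and 13.1% in the liver lists and 7.04% in kidney. It was 5.26% in spleen, 3.48% in lung, 2.44% in heart and 1.74% in muscle, so lung then stood above its 3.18% over all PCGs.

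In 6 of the 9 genes (CPS1, ASS1, ASL, ARG1, FBP1 and TAT), every liver list covered more of the window than every other list. Of 18259 PCGs with any peak in the window, 17.7% had this order, and 1.0% had the opposite order. The 5 other lists were all newborn, so for suckling and adult liver tissue and age cannot be told apart here. The mean of the 3 liver lists minus the mean of the 5 others had a median of 7.7 percentage points over the 9 genes and of 0.835 over all genes tested. An exact two-sided permutation test over the 56 ways to choose 3 of 8 lists cannot give a p below 0.0179. It gave that value for the 6 genes named, and after Benjamini-Hochberg adjustment over 18259 genes each had an adjusted p of 0.141 in this exact permutation test, so none passed 0.05. Among all genes, 17.5% reached an unadjusted p under 0.05 with higher cover in liver, and 0.0% passed after adjustment. With each list reduced to its 57126 strongest peaks the order held at CPS1, PCK1 and TAT only, that is at 3 genes (7.74% of all genes), and with peaks of an IDR of 0.05 or lower at 4 (CPS1, ARG1, PCK1 and TAT; 8.8% of all genes). Without flanks it held at 4 genes (CPS1, ASL, ARG1 and TAT), and with 20 kb on either side at 8, all but PC. The shares of all genes were not computed for these windows.

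CPS1, the entry enzyme of the urea cycle, was the member with the fewest peaks outside liver. Its window (chr15:113205038-113344086) was covered to 10.1% ± 2.45 in newborn liver, 4.69% ± 0.137 in suckling liver and 8.62% ± 1.13 in adult liver. Here and below, ± is the SD between the cover given by the intervals of the replicates (n = 2). Both intervals outline the same matched peaks, so the SD reflects peak outlines and not which peaks were called. No base was covered in kidney, heart or spleen, and 0.321% and 0.160% were covered in lung and muscle. The gene carried 52 regions (peaks of any list joined where they shared a base), of which 49 held peaks in liver lists only and 11 in all 3 liver lists and no other. The strongest in newborn and suckling liver stood in the first intron, 4123 bp after the annotated start (chr15:113213857-113214465), where the C/EBP and FOXA matches printed above lie. Its −log10 p values were 359 and 35.3 in the newborn, 23.3 and 32.0 in the suckling and 187 and 108 in the adult liver replicates, and its IDR was 0.00513, 0.00251 and 0.00135. These values grow with depth and are comparable within a list. The smaller of the 2 replicate values, ranked among the smaller values of all peaks in the list, stood at percentiles 90.8, 86.8 and 86.9. Percentiles of peaks are of this kind unless they are said to be of a replicate's own values. No list had a peak in the promoter of CPS1, which was true of 16.8% of all PCGs. The sole annotated model is a predicted one that starts at 113210038, while its first coding base lies at 113221742. A liver region at all 3 ages (chr15:113221276-113221939) spanned that first coding base, with an IDR of 0.02, 0.00269 and 0.000661, and at percentile 90.7 it was the strongest of adult liver. A region at the upstream edge of the window, centred 5545 bp before the annotated start (chr15:113203661-113205325), was called in the liver, kidney and lung lists, and in kidney it stood at percentile 62.8 with an IDR of 0.105.

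NAGS, which makes the activator of CPS1, had a cover in kidney within the range of the liver ages. Its window was covered to 22.5% ± 6.82, 19.4% ± 0.552 and 28.6% ± 0.99 in newborn, suckling and adult liver, 21.5% ± 3.0 in kidney, 18% in spleen, 14.0% in lung, 8.81% in heart and 3.71% in muscle. Kidney lay between the suckling and newborn livers. The liver minus other difference was 10.3 percentage points (exact permutation p = 0.0714, adjusted p = 0.278). It became −16.2 (exact p = 0.2321) when the 5 kb flanks were left out, and 5 of the 6 regions of this short gene lie outside its body. It was 12.8 (exact p = 0.0357) with equal numbers of peaks. With the intervals of replicate 1 for the same peaks it was 15.2 (exact p = 0.0179), with every liver list on top. With those of replicate 2 it was 6.08 (exact p = 0.2857). With 20 kb on either side it was 5.1 (exact p = 0.0893), again with every liver list on top. A site upstream (chr12:19178090-19178458, 4306 bp before the start, shown above with its HNF1 match) had an IDR of 0.0038, 0.0011 and 0.000794 in newborn, suckling and adult liver, at percentiles 93.3, 89.9 and 89.3. In kidney the same site stood at percentile 39.3 with an IDR of 0.398, and no other list held it. The strongest kidney peak of the window away from any promoter, inside the gene (region chr12:19171640-19173288), stood at percentile 60.4. The promoter held peaks in the liver, kidney, lung and spleen lists, at percentiles 67.9, 80.0 and 83.0 in liver against 37.5, 10.2 and 49.6. The RefSeq model of NAGS begins at its first coding base, so its promoter window may miss the true start, and the window also holds the promoter of TMEM101, open in all 8 lists.

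ASS1, the enzyme that joins citrulline and aspartate, was covered to 11.5% ± 1.01, 8.08% ± 0.551 and 9.32% ± 0.322 in newborn, suckling and adult liver and to 7.15% ± 1.17 in kidney. Cover was 3.49% in spleen, 2.75% in muscle, 2.09% in lung and 1.2% in heart. The liver lists stood above all others, but the replicates of suckling liver (6.58% and 7.36%) and of kidney (4.98% and 6.64%) overlapped. The difference was 6.3 percentage points, and it was 1.57 (exact permutation p = 0.1607) with equal numbers of peaks in every list. A peak over the start (chr1:270531412-270531860) stood at percentiles 90.6, 93.4 and 91.7 in the liver lists, 64.1 in kidney and 43.8 in spleen, and was not called in heart, lung or muscle. A smaller peak 205 bp before the start (chr1:270531114-270531344) was called in all 3 liver lists and no other. A further promoter region (chr1:270531988-270533496) was called in the liver lists, kidney, heart, lung and spleen, and was not led by liver. Its strongest peak stood at percentiles 49.3, 69.7 and 31.1 in newborn, suckling and adult liver. The values were 78.5 in spleen, 64.7 in kidney, 40.3 in lung and 36.3 in heart. Outside the promoter, the leading region lay 5213 bp upstream (chr1:270525720-270526721), at percentile 93.1 in suckling liver and 86.9 in kidney, both with an IDR under 0.05 (0.00191 and 0.00174). In newborn liver the same region stood at 64.7 with an IDR of 0.38.

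ASL, which splits argininosuccinate into arginine and fumarate, had a promoter peak in all 8 lists, as did 56.8% of PCGs. Its window was covered to 14.6% ± 0.31, 10.6% ± 0.941 and 12.6% ± 0.0511 in the liver lists, 9.06% ± 0.208 in kidney, 5.43% in lung, 5.27% in heart and in spleen and 3.88% in muscle. The promoter peak stood at percentiles 94.9, 94.7 and 95.1 in heart, lung and spleen, at 82.5 and 93.3 in suckling and adult liver, at 80.7 in muscle and at 49.1 in kidney. The kidney replicates differed, with −log10 p values of 6.84 and 113, at percentiles 39.9 and 98.8 of their own values, and an IDR of 0.437. In newborn liver the peak over the start (chr3:16637169-16638294) stood at percentile 8.88 with an IDR of 0.417, as its replicates gave −log10 p values of 3.84 and 82.1, and the strongest newborn promoter peak was a separate one upstream of it (chr3:16636771-16637046), at percentile 79.7. What the liver and kidney lists had in addition was an intronic region 2147 bp after the start (chr3:16639107-16640149), called at all 3 liver ages and in kidney and in no other list. Its percentiles were 44.5, 93.8 and 64.9 in newborn, suckling and adult liver and 80.7 in kidney. The difference of 6.81 percentage points turned to −1.07 (exact permutation p = 0.5179) when peaks with an IDR above 0.05 were left out, where newborn liver kept no peak in this window.

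ARG1, the arginase of the liver, had separate promoter peaks in liver and in spleen. Its window (chr1:32001035-32033983) was covered to 8.68% ± 1.04, 7.20% ± 0.562 and 14.6% ± 0.781 in newborn, suckling and adult liver and to 5.36% ± 0.461 in spleen. Heart had 0.543%, and kidney, lung and muscle had no peak. The gene has 3 annotated starts on the minus strand. The liver peak (chr1:32019870-32020672) lay over both inner starts, with IDR values of 0.0178, 0.00316 and 0.000562 and percentiles of 82.3, 90.2 and 91.9 at the 3 ages, and no other list called it. The strongest spleen peak (chr1:32028622-32029259) lay over the outer start at 32028983, and no liver list called it. In the spleen list it had −log10 p values of 35.1 and 82.5, percentile 88.7 and an IDR of 0.00468. Erythroid, lymphoid and macrophage promoters were open in that list, as given above, and which cells carried the peak was not tested. The sequences before the starts, shown above for one inner start and the outer start, shared no match to the 7 consensus sequences. A further liver region lay in an intron (chr1:32018020-32019046), at percentiles 19.2, 74.0 and 68.9 in newborn, suckling and adult liver, with an IDR of 0.389, 0.0123 and 0.00617. Spleen also shared intronic regions with liver. One (chr1:32024384-32024759) was called in newborn and suckling liver, heart and spleen. Another (chr1:32016503-32017062) was called in newborn and suckling liver and spleen. The difference of liver over other lists was 8.96 percentage points.

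**Figure D2:**
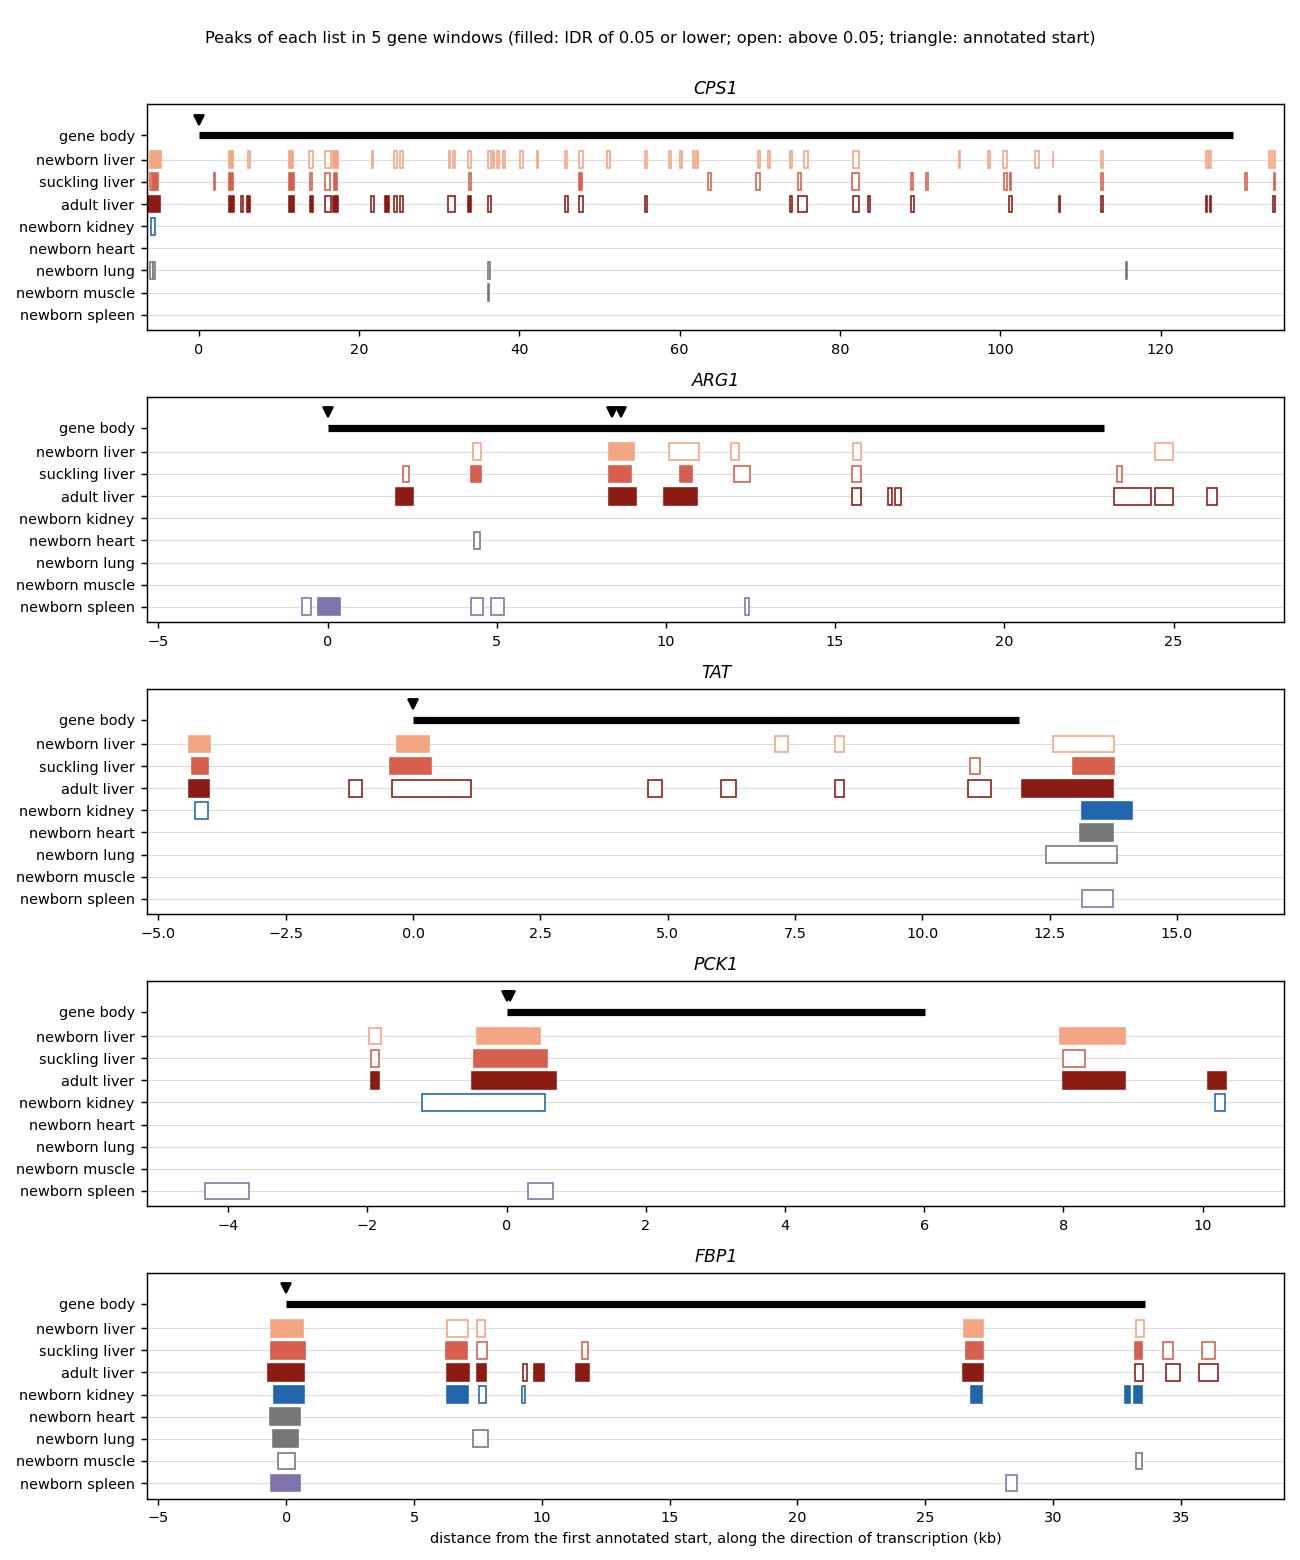
Peaks of the 8 lists (rows) along 5 gene windows, by distance from the first annotated start in kb (x axis). Filled boxes have an IDR of 0.05 or lower, open boxes a higher one, triangles are annotated starts and the black bar is the gene body. The liver promoter boxes of ARG1 lie at the inner starts and the strongest spleen box at the outer start. Liver and spleen both have further boxes at ARG1, some of them shared. All but 1 of the 7 kidney boxes of FBP1 fall on liver boxes.

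PC, the mitochondrial carboxylase that makes oxaloacetate from pyruvate, was the member without a liver pattern. Cover was 7.80% ± 2.53, 5.28% ± 0.442 and 2.76% ± 0.272 in newborn, suckling and adult liver, 6.77% ± 1.12 in spleen, 4.05% ± 0.51 in kidney, 4.02% in lung, 2.93% in heart and 1.04% in muscle. Spleen and newborn liver overlapped in their replicates, and adult liver stood below every other list but muscle. The difference was 1.51 percentage points (exact permutation p = 0.393, adjusted p = 0.671). It was −0.193 with peaks of an IDR of 0.05 or lower, −0.714 with equal numbers of peaks and −0.805 without flanks. No list had a promoter peak, and the annotated model begins at its first coding base, so the true start may lie outside the window. The promoter region of the neighbouring gene RCE1 (chr2:5591983-5593964) was called in all 8 lists and was the strongest of the window in all but kidney, at percentiles 79.7, 79.4 and 77.5 in the liver lists. That of LRFN4 (chr2:5579943-5581352) was called in 7, at percentile 72.0 in kidney and lower, at 47.0, in suckling liver, and it was not called in adult liver. Of the rest, the leading one downstream (chr2:5590384-5590660) was called in the liver lists and kidney, at percentiles 59.1, 51.6, 23.1 and 52.1.

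PCK1, the cytosolic carboxykinase that commits oxaloacetate to glucose, had peaks in the liver, kidney and spleen lists and in no other. Cover of its window (chr17:57925507-57941523) was 12.6% ± 2.06, 9.32% ± 1.42 and 15.5% ± 0.221 in newborn, suckling and adult liver, 11.9% ± 0.344 in kidney and 6.22% ± 3.77 in spleen, and heart, lung and muscle had no peak. Kidney stood within the range of the liver ages. The difference was 8.84 percentage points (exact permutation p = 0.0536, adjusted p = 0.24), and with equal numbers of peaks it was 10.8 (exact p = 0.0179). The promoter peak (chr17:57929292-57931220), over the C/EBP and CREB matches printed above, had −log10 p values of 231 and 22.4 in newborn liver, 17.0 and 21.1 in suckling liver, 132 and 147 in adult liver, 6.34 and 33.2 in kidney and 5.41 and 13 in spleen. Its IDR was at most 0.0151 in the liver lists, 0.417 in kidney and 0.661 in spleen, where the peak lay wholly on the gene side of the start. A smaller peak 1888 bp upstream (chr17:57928538-57928700) and a region 8418 bp after the start, past the end of the gene (chr17:57938454-57939396), were called in all 3 liver lists and in no other. The downstream region stood at percentiles 86.2, 45.3 and 80.3. Next to it, a region at 10211 bp (chr17:57940589-57940848) was shared by adult liver, at percentile 64.1, and newborn kidney, at 62.6, and was not called in the younger livers.

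FBP1, the bisphosphatase of gluconeogenesis, had a promoter peak in all 8 lists that ranked very high in liver and kidney. The window (chr10:27583609-27627225) was covered to 7.93% ± 0.681, 10.4% ± 0.0195 and 14.0% ± 0.94 in newborn, suckling and adult liver, 7.81% ± 0.0162 in kidney, 3.63% in spleen, 3.54% in lung, 2.74% in heart and 2.01% in muscle. Newborn liver and kidney differed by less than the spread of the newborn liver replicates. The difference was 6.8 percentage points, and it was 3.79 (exact permutation p = 0.0893) with equal numbers of peaks. The promoter peak (chr10:27587898-27589326) stood at percentiles 99.4, 99.7 and 97.0 in the liver lists and 99.2 in kidney. It stood at 96.3 in lung, 93.4 in spleen and 87.3 in heart, and at 0.354 in muscle, where the replicates gave −log10 p values of 3.29 and 26.6. Of the 12 regions, 3 were called in liver and kidney only. They included an intronic region 6705 bp after the start (chr10:27594856-27595773) and the one 26870 bp after the start (chr10:27615080-27615879) whose adjoining C/EBP and HNF4 matches are printed above. The latter stood at percentiles 80.8, 86.9 and 93.0 in liver and 73.6 in kidney, each with an IDR of at most 0.0204. The strongest kidney region outside the promoter lay at the last exon (chr10:27621775-27622160), at percentile 85.7. Regions of adult liver that newborn liver lacked numbered 5, and none went the other way.

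TAT, the tyrosine aminotransferase, was the single member with a promoter peak in liver lists only, a pattern of 2.81% of PCGs, and of 0.9% when a peak at all 3 ages is asked for. Its window (chr6:14566311-14588203) was covered to 12.2% ± 1.47, 9.72% ± 0.174 and 23.7% ± 1.02 in newborn, suckling and adult liver. The other lists had 6.33% in lung, 5.71% in kidney, 2.96% in heart, 2.79% in spleen and no peak in muscle. Every liver list was higher, and the difference of 11.6 percentage points stood at the 99.4th percentile of all genes tested. The promoter region (chr6:14582068-14583647) had −log10 p values of 132 and 24.8 in newborn, 26.4 and 32.7 in suckling and 154 and 7.62 in adult liver. The adult replicates differed, at percentiles 89.4 and 15.5 of their own values, and the adult peak had an IDR of 0.479, so that the strongest adult promoter peak by its smaller value was a second one, at percentile 52.0. A site 4192 bp upstream (chr6:14587192-14587598, printed above) was the leading one outside the promoter. It stood at percentiles 96.8, 87.2 and 92.2 with an IDR of at most 0.00162 in the liver lists and at percentile 53.1 with an IDR of 0.38 in kidney, and no other list held it. The region past the end of the gene (chr6:14569079-14571245) was called in 7 lists, all but muscle, and was the strongest of kidney in this window, at percentile 84.1. Adult liver had 4 regions that newborn liver lacked, of which 1 was in the promoter, 1130 bp before the start.

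**Figure D3:**
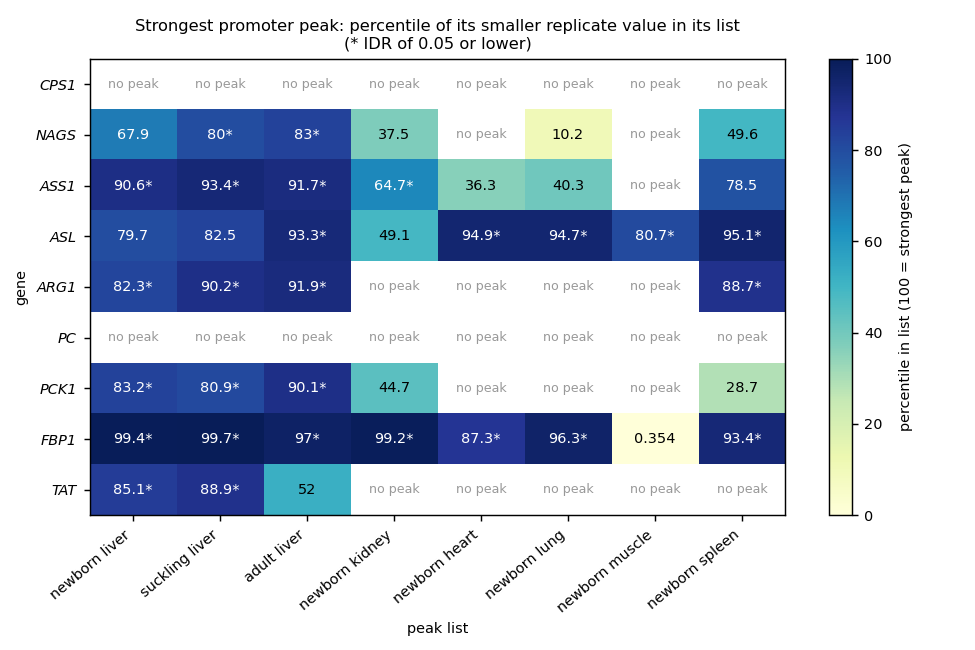
Strongest promoter peak of each gene (rows) in each list (columns), as the percentile of its smaller replicate −log10 p in that list (colour, 100 is the strongest peak); an asterisk marks an IDR of 0.05 or lower. CPS1 and PC have no promoter peak, FBP1 is at 97.0 or above in liver and kidney, and TAT has peaks in liver alone.

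By promoter, 7 of the 9 genes (all but CPS1 and PC) had a peak in newborn (73.7% of PCGs), in suckling (75.0%) and in adult liver (69.9%), and the same 7 had one at all 3 ages, against 67.7% of PCGs, and 4 of them (ASS1, ARG1, PCK1 and FBP1) had one with an IDR of 0.05 or lower at each age, against 36.1%. In kidney 5 of the 9 had a promoter peak (75.3% of PCGs), each of which also had one in newborn liver (70.3% of PCGs had both), in spleen 6 (68.9%), in lung 4 (70.6%), in heart 3 (68.1%) and in muscle 2 (61.5%). The count stood within 1 gene of the share of all genes in the liver and spleen lists, and further below it in kidney, lung, heart and muscle. Of 136 regions in the windows, 77 lay in introns, 21 touched exons, 19 lay downstream, 6 upstream and 13 in promoters.

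Of the 136 regions, 94 (69.1%) held peaks in liver lists only, against 26.1% of 190029 regions in the windows of all PCGs. Without CPS1 this was 45 of 84 (53.6%). Every list outside liver was newborn, so regions called only in suckling or adult liver had no other tissue of that age to be compared with. Regions called in all 3 liver lists and no other numbered 22 (16.2%, against 4.77%), and 11 of them were at CPS1. Regions in liver and kidney only numbered 10 (7.35%, against 6.53%), those in kidney only 2 (1.47%, against 11.6%), those in spleen only 6 (4.41%, against 5.23%), and those in all 8 lists 4 (2.94%, against 8.27%). A liver list of any age held 126 (92.6%, against 63.6%), and the remaining 10 were in no liver list (7.35%, against 36.4%). With an IDR of 0.05 or lower, 33 of the 49 regions that were left were in liver lists only. The share over the windows of all PCGs was not computed at that limit.

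**Figure D4:**
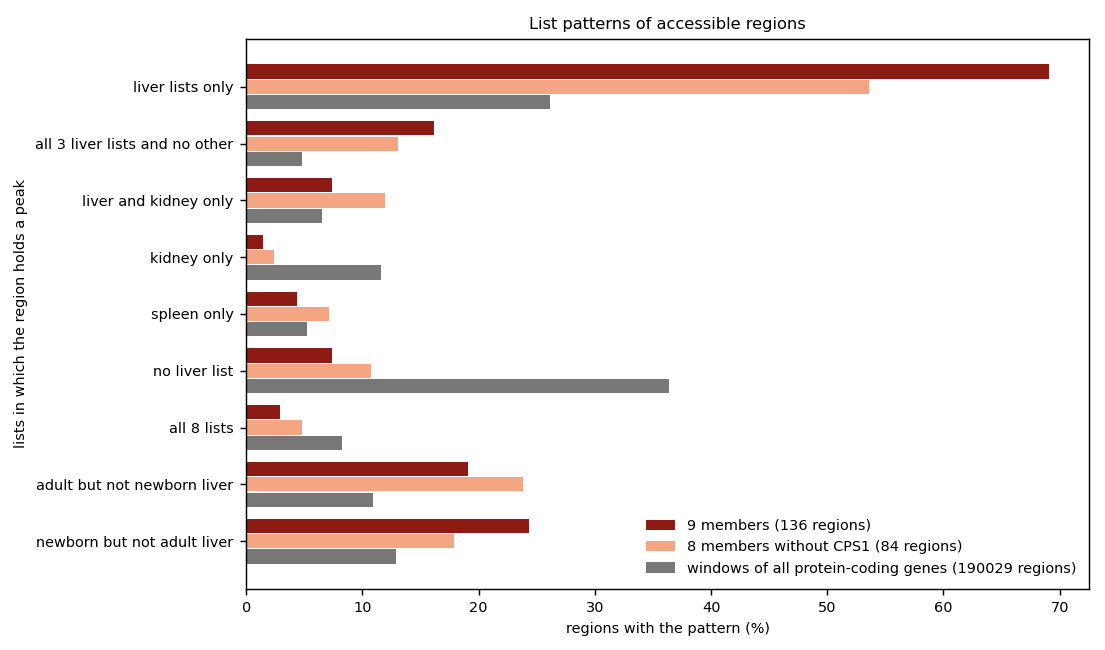
Share of regions (percent, x axis) with each pattern of lists (y axis) for the 9 genes, for 8 without CPS1 and for the windows of all protein-coding genes. The bar for liver lists only reaches 69.1% for the 9 genes, 53.6% without CPS1 and 26.1% for all windows.

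Over the liver ages, adult liver had the highest cover of the 3 in 5 genes, NAGS, ARG1, PCK1, FBP1 and TAT (26.0% of PCGs had this order). In the same genes cover from the intervals of both adult replicates stood above that from all 4 replicate intervals of the other ages. This held for 14.9% of PCGs. The intervals of an age outline the same matched peaks, so such orders are not those of independent replicates. Suckling liver had the lowest cover in 7 genes, all but PC and FBP1 (23.6% of PCGs). Both of its intervals lay below all 4 others in CPS1, ASS1, ASL and PCK1 (6.33% of PCGs). ASS1 and ASL had both newborn replicates on top (11.3% of PCGs). With only peaks at or below the IDR limit used above, the orders of cover in the lists changed in part. Cover was then 0.53%, 3.78% and 5.35% at ASS1 in newborn, suckling and adult liver, and 0.0%, 2.86% and 6.71% at ASL. Newborn liver was lowest there, and also at NAGS, ARG1, FBP1 and TAT. Suckling liver was lowest at CPS1 and PCK1 only. Adult liver stayed highest in the 5 genes named first. Even with 2 independent replicates against 2, an exact permutation p cannot fall below 0.333, so no age difference of a single gene was tested.

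Regions called at all 3 ages numbered 45 (33.1%, against 25.5% of regions in all windows). They stood at median percentiles of 61.8, 74.8 and 73.0 in the newborn, suckling and adult lists. In adult but not newborn liver there were 26 regions (19.1%, against 10.9%), and in newborn but not adult liver 33 (24.3%, against 12.9%), of which 18 were at CPS1. The regions of newborn liver alone among the ages were weak. These 25 had a median percentile of 17.7, and 0 had an IDR of 0.05 or lower; 16 of them were at CPS1. The 18 of adult liver alone had a median percentile of 12.9, and 3 had an IDR of 0.05 or lower. With peaks of an IDR of 0.05 or lower, 1 region was called in newborn and not in adult liver, and cover of the 9 windows was 2.44%, 3.54% and 6.2% from newborn to adult. That order differs from the one over all peaks, and the share of peaks with such an IDR rose with age over the whole lists as well, as given above.

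Newborn kidney, the other gluconeogenic organ, covered more of the window than heart, lung, muscle and spleen in 5 of the 9 genes, NAGS, ASS1, ASL, PCK1 and FBP1 (43.8% of PCGs). Every liver list stood above kidney in 6 genes, CPS1, ASS1, ASL, ARG1, FBP1 and TAT (32.8% of PCGs). The kidney list had no peak in the windows of ARG1 and CPS1, since its peak in the region that crosses the upstream edge of the CPS1 window lay outside that window. Spleen was the list next to kidney, with promoter peaks at NAGS, ASS1, ASL, ARG1, PCK1 and FBP1, and heart, lung and muscle held 10 to 13 peaks in all 9 windows together.

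Related genes were taken from 3 lists, in which 23 of 24 symbols were found (PRODH was not). Every liver list exceeded every other list in 6 of 8 genes of the urea cycle and nitrogen transport, in 6 of 9 of gluconeogenesis and in 6 of 6 of amino acid breakdown, that is in 18 of 23 against 17.7% of PCGs. The median difference was 3.87, 6.31 and 8.01 percentage points in the lists, beside 0.835 over all genes tested. The exceptions were ARG2, GLUL, SLC37A4, GPT and GOT2. OTC, which joins carbamoyl phosphate to ornithine, was covered to 3.68%, 2.42% and 4.4% in newborn, suckling and adult liver, 1.6% in lung, 0.749% in kidney and not at all in heart, muscle and spleen, and its promoter peak was in the liver lists only. G6PC, the glucose-6-phosphatase that ends gluconeogenesis, had 19.6%, 25.4% and 22.8% in liver, 10.8% in kidney, 1.75% in spleen and none in heart, lung and muscle. TDO2, which opens tryptophan breakdown, had 12.2%, 10.9% and 16.1% in liver and no peak in any other list. Of the other amino acid genes, BHMT had 12.3%, 11.3% and 22.1% in the liver lists and at most 6.5% elsewhere. In the other genes with this order, the lowest liver list and the highest other list were 6.41% and 5.61% at SLC25A15, 4.99% and 3.94% at SLC25A13, 10.6% and 7.75% at GLUD1, 14.4% and 12.1% at GLS2, and 10.4% and 6.82% at CA5A. They were 7.96% and 6.05% at GPT2, 6.86% and 5.3% at GOT1 and 5.09% and 4.0% at MDH1. HPD had 11.4% and 7.56%, HGD 5.03% and 4.51%, SDS 8.17% and 5.49%, and AGXT 10.8% and 5.43%, so the gap was narrowest at HGD.

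Paralogs of the members differed from them in promoter peaks, but not all differed in the order of cover. PCK2 and FBP2 had every liver list above every other list, as FBP1 had and PCK1 had not. ARG2, the mitochondrial arginase found in kidney and many tissues, had a promoter peak in all 8 lists and was covered to 4.84%, 3.86% and 4.13% in the liver lists, 6.9% in kidney and 4.97% in muscle, so that ARG1 and not ARG2 had the order of liver above the rest. PCK2, the mitochondrial carboxykinase, had a promoter peak in all 8 lists where PCK1 had one in 5, with cover of 13.7%, 15.0% and 16.8% in liver, 10.6% in kidney and at most 5.15% elsewhere. FBP2, the muscle bisphosphatase next to FBP1 on chromosome 10, had a promoter peak in muscle and in no other list. Its window cover was nevertheless 5.29%, 6.59% and 7.47% in the liver lists, 3.51% in muscle and at most 4.76% (spleen) outside liver. GLUL, the glutamine synthetase of perivenous hepatocytes and many other cells, had a promoter peak in all 8 lists, and its window was covered most in kidney, at 13.9%, against 10.7% to 12.8% in liver.

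**Figure D5:**
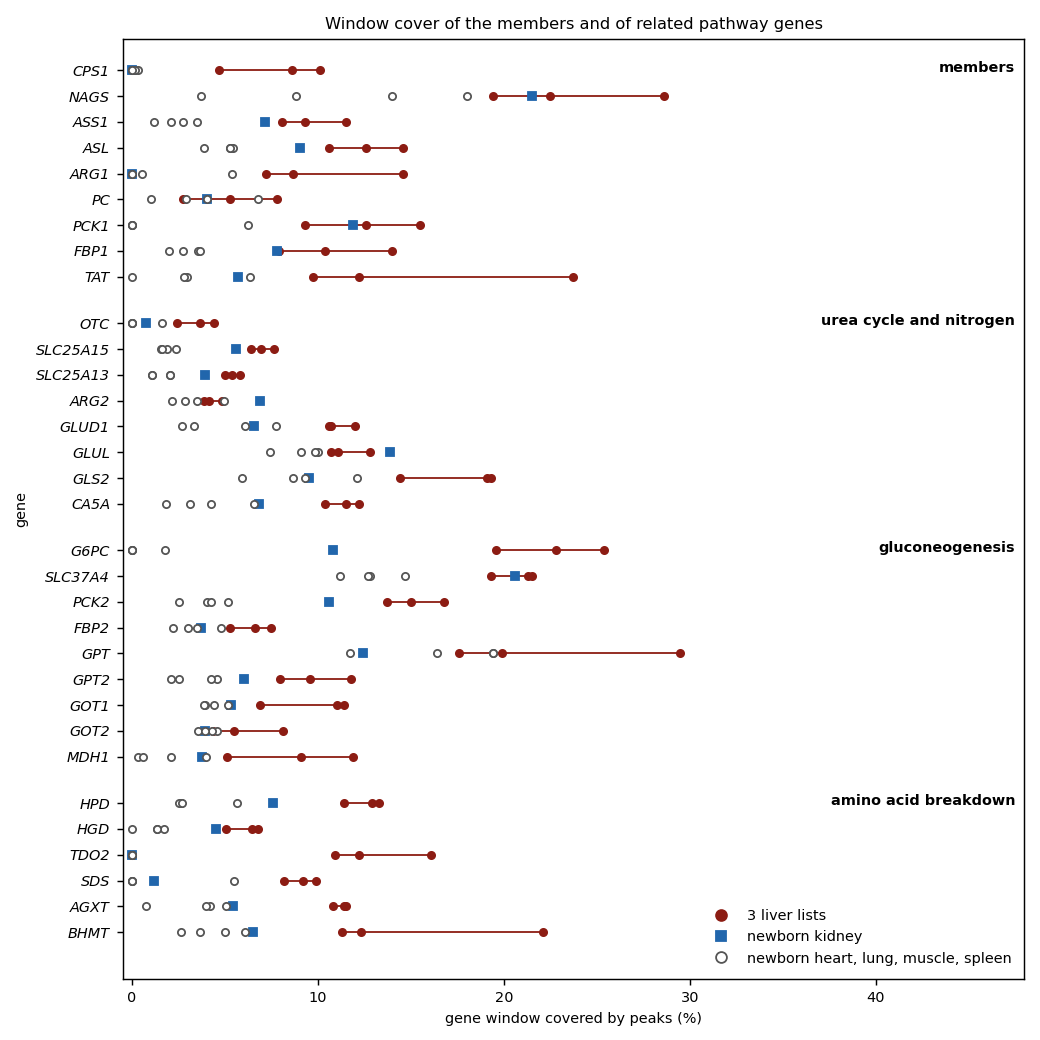
Window cover (percent, x axis) of the 9 genes and of 23 related genes (y axis) in the liver lists (red points, joined by a line), kidney (blue squares) and the 4 remaining newborn tissues (open circles). Liver points stand right of all others in 6 of the 9 and in 18 of the 23 genes.

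Some genes outside the pathways had a profile over the 8 lists much like that of a member. The highest Pearson r of window cover, among 13216 to 13218 candidate genes, was reached by ZNF213 for CPS1 (0.997), ATF1 for NAGS (0.986), ESRRA for ASS1 (0.986), IGF2R for ASL (0.996), HSPA14 for ARG1 (0.986), B3GALT6 for PC (0.985), KDM8 for PCK1 (0.992), S1PR3 for FBP1 (0.993) and LOC100623190 for TAT (0.993). These are descriptions over 8 lists that differ in length. ZNF213 was covered to 13.5%, 10.5% and 12.2% in the liver lists and still to between 8.04% and 8.27% in the others, so a like profile is not a like level.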

How the data were processed

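Omni-ATAC libraries of frozen tissue were sequenced in paired-end mode. Per the study's methods and the submitters' processing notes, the authors aligned reads to Sscrofa11.1 with Bowtie2, filtered them with SAMtools 1.3.1, called peaks in each replicate with MACS2 and matched the replicates of a group with IDR. The 8 deposited lists, 1 per group, were used. The authors' −log10 p values of each replicate grow with depth, which the lists do not give (the study's read totals per library were not used here), so peaks were ranked within a list only, as percentiles. The score that the authors deposited is the IDR on a log scale (540 is 0.05), and the lists also hold peaks above it. Absence of a peak is a peak not called, and how the pipeline treats depth could change every cover value.

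Genes, exons and starts came from the RefSeq annotation of Sscrofa11.1, with 47600 promoters of PCGs on chromosomes 1 to 18, X and Y, and an overlap of 1 bp counted. Cover was the percent of a window under merged peaks, and the intervals of each replicate gave its SD (n = 2). Liver and other lists were compared by an exact two-sided permutation test over lists, with Benjamini-Hochberg adjustment over 18259 genes; since newborn tissues share pigs and liver ages do not, the lists are not independent samples. Coverage, overlap, region and test functions were tested on simulated data. Python 3.11.15, NumPy 2.4.6 and pandas 2.3.3 were used. The members, lists of related genes and markers, consensus sequences and tests were chosen with earlier results of these data known. Named were all 9 members, the related genes by counts with values for OTC, G6PC (listed as G6PC1), GLUL, the paralogs and genes with every liver list above the others, the most similar gene of each member, and its promoter regions and leading regions outside promoters in liver and kidney. A pair of genes of the related lists is not reported here, and the counts leave it out.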

Additional observations from a re-analysis of the deposited data

How the results depend on the processing

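The lists hold no read counts, so a missing peak may reflect depth, and cover counts peaks whatever their strength. With the replicate number as a block, an alternative chosen after seeing the data, every liver list was on top within both numbers in 5 genes (not FBP1). The differences were then 1.1 (PC) to 10.6 percentage points, and 1 call changed, at NAGS (10.6, exact permutation p = 0.0357). Neither labels nor methods say which pig bears which number, and the differences between replicate intervals correlated from −0.309 to 0.293 over 19552 windows in 15 pairs of newborn lists (7 above 0.1), so the numbers were not taken as pairs. Of 54 recomputed differences between liver and other lists, 49 stayed higher in liver, 40 kept direction and side of the threshold, 5 lost and 5 gained an unadjusted exact p under 0.05, and 5 changed sign, of which 1 (ASL) is also among those lost. The sign changed for ASL (−1.07) and PC (−0.193) with an IDR of 0.05 or lower, for PC (−0.714) with the 57126 strongest peaks of every list, and for NAGS (−16.2) and PC (−0.805) without flanks.

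With an IDR of 0.05 or lower, 4 genes had promoter peaks at all 3 liver ages and 2 in kidney, 33 regions were in liver lists only, and 1 region was in newborn but not adult liver. Total cover was 2.44%, 3.54% and 6.2% in newborn, suckling and adult liver, 1.7% in kidney, 0.976% in heart, 0.782% in lung, 0.368% in muscle and 1.44% in spleen. With equal numbers of peaks, 3 genes had every liver list on top and 2 had a kidney promoter peak. Of 59 regions, 30 were in liver lists only, 14 in adult but not newborn and 8 in newborn but not adult liver. Cover was 4.05%, 4.33% and 6.49% in newborn, suckling and adult liver, 1.93% in kidney, 1.42% in heart and 2.62% in spleen. Shares over the regions of all windows were computed for the main setting only. Both settings keep fewer peaks, and the difference was 1.73 and 2.1 at CPS1, 3.95 and 3.69 at ARG1 and 6.33 and 6.7 at TAT. Without flanks, 4 genes had every liver list on top (ASS1 and FBP1 were lost), and cover was 10.1% in newborn liver, above adult liver, 6.39% in suckling and 9.85% in adult liver, 3.7% in kidney, 1.18% in heart, 1.63% in lung and 1.11% in muscle. With 20 kb on either side, 8 genes had every liver list on top (NAGS and PCK1 were added), 41 regions were in adult but not newborn liver, and cover was 8.31% in suckling and 10.8% in adult liver, 5.05% in kidney, 1.96% in heart and 1.42% in muscle. Cover from the intervals of 1 replicate was 7.12% to 9.75% in newborn, 6.49% to 6.51% in suckling and 9.57% to 10.4% in adult liver. It was 3.66% to 4.16% in kidney, 1.25% to 1.37% in heart, 1.38% to 2.3% in lung, 0.908% to 0.921% in muscle and 2.19% to 3.1% in spleen. Every liver list was on top in 5 genes with the intervals of replicate 2 (not FBP1) and in 7 with those of replicate 1 (with NAGS). Both keep every matched peak and change only its outline.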
